A study of Mus musculus with 24 samples.

Results

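6 genes of bile acid signaling and uptake were followed through 24 RNA-seq libraries of mouse duodenum: Nr1h4, Nr0b2, Gpbar1, Slc10a2, Fabp6 and Fgf15. They were chosen by name from 25410 gene symbols, and all 6 were found. The mice were male Cyp27b1 nulls, which lack the enzyme that makes the hormone 1,25-dihydroxyvitamin D3 (1,25D), so every group, vehicle controls included, was without its own supply of the hormone, and no wild type is analysed here. From weaning at 3 weeks they ate a vitamin D-deficient diet, either with 0.47% calcium and 0.3% phosphorus (normal diet) or with 2% calcium, 1.25% phosphorus and 20% lactose (rescue diet). At 8 weeks they were injected intraperitoneally with vehicle or with 1,25D at 2 ng/g body weight, and the duodenum was taken 6 h later. The 4 groups of 6 libraries are written normal vehicle, normal 1,25D, rescue vehicle and rescue 1,25D. The design text gives 12 mice per diet. It also gives a separate number of injected mice per group, and that number does not match 6 libraries a group. No link from library to animal is given, so p-values measure the spread among libraries.

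Bile acids are made from cholesterol in the liver, released into the duodenum to disperse fat, and taken back mainly in the ileum, the far end of the small intestine. There Slc10a2 (the apical sodium-dependent bile acid transporter) carries them into the enterocyte, Fabp6 binds them in the cytosol, and the transporter pair Osta and Ostb exports them toward the blood. Inside the cell they activate the nuclear receptor Nr1h4 (FXR), which pairs with RXR and induces Nr0b2 (SHP, a repressor without a DNA-binding domain) and Fgf15, a hormone that lowers bile acid synthesis in the liver. Gpbar1 (TGR5) senses bile acids at the cell surface. The vitamin D receptor is itself a bile acid sensor, as it binds lithocholic acid as well as 1,25D.

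Values are RPKM as deposited, which divide reads by feature length and by library size, so levels can be compared between genes per length. Library size, estimated from the smallest steps between low values, ran from 14200000 to 39300000 reads (median 24900000). Cyp24a1, the enzyme that degrades 1,25D and its best known target, rose on both diets (log2 difference 9.14, SE 0.44, and 9.0, SE 0.44), so the injection is visible in these libraries. Summed levels of 10 markers of the proximal intestine, Pdx1 and Gata4 among them, lay between 250.9 and 999.3 RPKM, and 5 ileal markers other than the members (Cubn, Amn, Nts, Pyy and Gcg) between 3.396 and 18.2 RPKM, so the defining markers of the labelled tissue were present. No marker was at 0 in all libraries. The libraries differed in material from the pancreas: 8 exocrine pancreas markers summed to between 2.037 and 16640 RPKM, highest in normal vehicle replicate 6.

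The members spanned more than 2 orders of magnitude. Mean levels over 24 libraries were 21.17 ± 12.08 RPKM for Nr1h4, 1.208 ± 0.841 for Slc10a2, 1.135 ± 0.485 for Nr0b2, 0.4996 ± 0.2452 for Gpbar1, 0.1821 ± 0.1848 for Fgf15 and 0.09842 ± 0.1418 for Fabp6 (SD over libraries). Nr1h4 was above Slc10a2 in 24 of 24 libraries, with a mean 17.5 times as high. The Nr1h4 value is a sum of 3 entries that may share reads, so this ratio may be too high. Slc10a2 and Nr0b2 could not be put in order, since each was the higher in 12 libraries. Nr0b2 exceeded Gpbar1 in 23 libraries and Gpbar1 exceeded Fgf15 in 21, while Fgf15 exceeded Fabp6 in 13 with 2 ties.

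**Figure D1:**
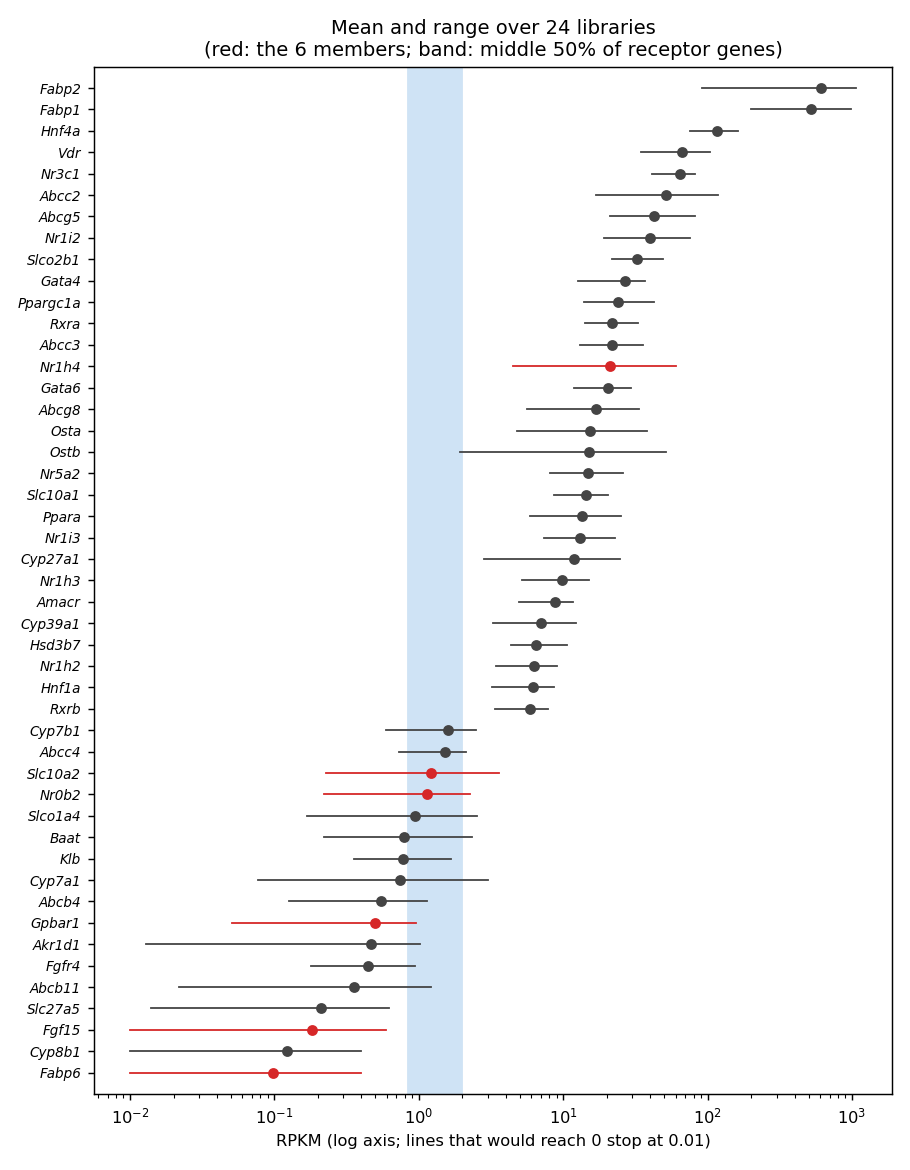
Mean RPKM (points) and range (lines) over 24 libraries for the 6 members in red and the other genes of bile acid transport, synthesis and regulation in grey, on a log axis; the band is the middle 50% of 1459 olfactory and vomeronasal receptor genes (0.8349 to 1.997 RPKM). Nr1h4 lies among the expressed genes at 21.17 RPKM, while Slc10a2 and Nr0b2 lie inside the band and Gpbar1, Fgf15 and Fabp6 below it.

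To place the low levels, 1459 olfactory and vomeronasal receptor genes, which have no known role in enterocytes, were taken as a measure of background; they were picked after the data were seen. The median of their means was 1.351 RPKM. Nr1h4 lay above 99.9% of them and above their median in 24 of 24 libraries. Slc10a2 was above 43.2% and Nr0b2 above 40.6% of the receptor genes, Gpbar1 above 12.7%, Fgf15 above 3.6% and Fabp6 above 1.2%. The libraries differed in this background too, with medians from 0.192 RPKM in rescue 1,25D replicate 5 to 3.985 RPKM in rescue 1,25D replicate 4.

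Within this set, 4 members (Nr1h4, Nr0b2, Slc10a2 and Gpbar1) reached 0.5 RPKM in at least 6 libraries and entered the limma fit with 20006 genes; Fgf15 and Fabp6 did not. For 1,25D on the normal diet, 0 of the 4 tested members were called at an adjusted p under 0.05, where 368 of 20006 genes (1.84%) were called. On the rescue diet 0 of 4 members were called against a background of 29 genes (0.145%). Rescue against normal diet called 0 of 4 members and 0 of all genes under vehicle (0.0%, with 1437 genes at an unadjusted p under 0.05), and 0 of 4 after 1,25D, against 2 genes (0.01%). The interaction, which asks whether the 1,25D response differs between the diets, called 0 of 4 members and 1 gene (0.005%). The lowest unadjusted p of a tested member in the 5 comparisons was 0.0723 (Nr1h4), and the groups overlapped for all 6 members in each of the 4 comparisons of groups, where 2.22%, 0.365%, 0.225% and 0.815% of the genes tested did not overlap. With shares of called genes this low, 0 of 4 says little about the members, and the intervals given below show what size of change the libraries leave possible.

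**Figure D2:**
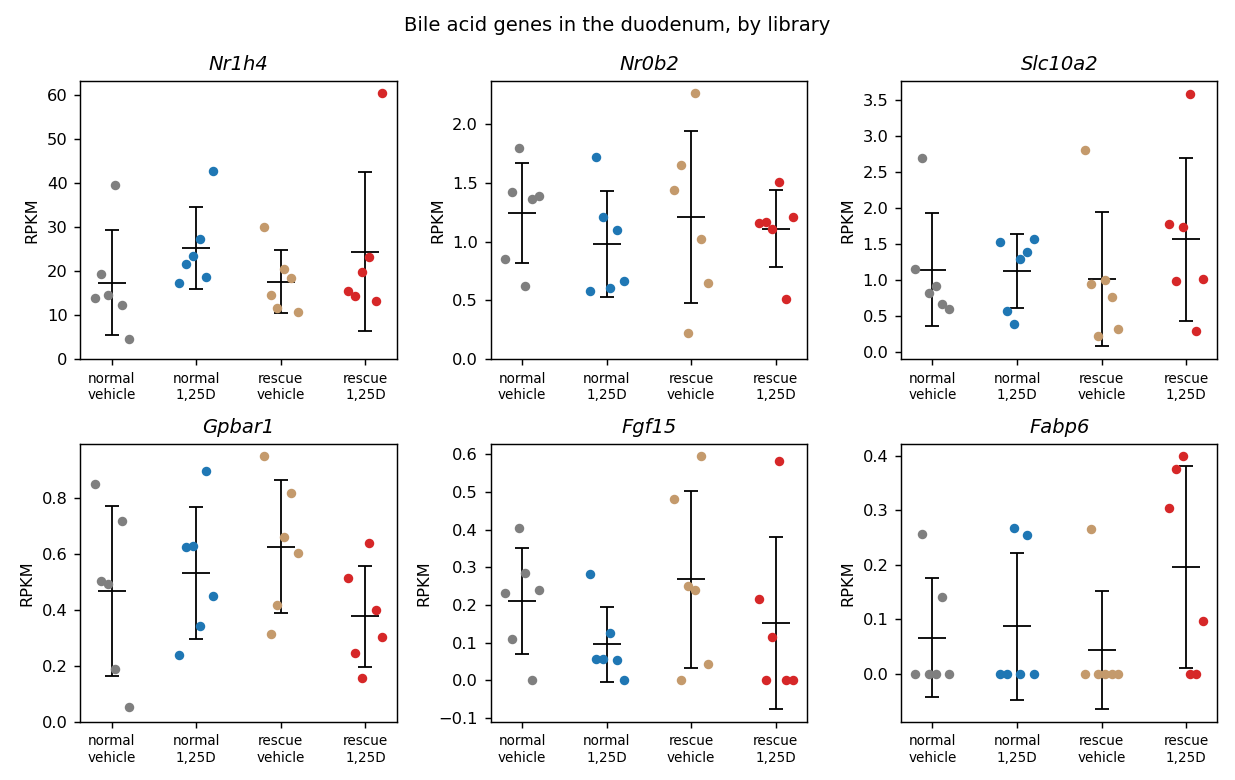
RPKM of each member in each library (points) with the group mean and SD (n = 6 libraries a group); the vertical axes differ between panels. For every member the groups overlap, and some libraries, such as rescue 1,25D replicate 6 for Nr1h4 (60.46 RPKM), stand far above the rest of their group.

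Nr1h4 was the only member expressed well above the receptor genes. Its level ran from 4.51 to 39.69 RPKM in normal vehicle (median 14.3), from 17.41 to 42.88 in normal 1,25D (median 22.58), from 10.61 to 30.11 in rescue vehicle (median 16.48) and from 13.31 to 60.46 in rescue 1,25D (median 17.58). The highest libraries were replicate 4 of normal vehicle, replicate 6 of normal 1,25D, replicate 1 of rescue vehicle and replicate 6 of rescue 1,25D. On the normal diet the mean was 17.41 ± 11.93 RPKM under vehicle and 25.22 ± 9.35 after 1,25D (SD, n = 6 each), a log2 difference of 0.71 (SE 0.38, 95% interval -0.07 to 1.5, adjusted p 0.497) that did not pass the test. On the rescue diet the means were 17.64 ± 7.22 and 24.42 ± 18.04 RPKM, with a log2 difference of 0.33 (SE 0.38, interval -0.46 to 1.11, adjusted p 0.89).

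The effect of diet on Nr1h4 was 0.19 on the log2 scale under vehicle (interval -0.60 to 0.97) and -0.20 after 1,25D (interval -0.98 to 0.58), and the interaction was -0.39 (interval -1.5 to 0.72). Neither passed the test, and neither did the interaction. Averaged over both diets, a comparison added after the data were seen, the 1,25D difference was 0.52 (interval -0.03 to 1.07, adjusted p 0.628), in a fit that called 0.953% of 24962 genes.

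Nr1h4 levels moved with the markers of some cell types in the tissue and little with others. Over 24 libraries, which also share depth and handling, Pearson's r of log2 Nr1h4 was 0.50 with the summed epithelial markers (0.51 without Fabp2). It was 0.46 with those of the proximal intestine, -0.49 with smooth muscle and -0.45 with exocrine pancreas. For the other lists r was -0.38 (endothelium), 0.21 (enteroendocrine cells), 0.17 (ileum other than the members), -0.10 (macrophages) and -0.06 (liver). Differences between the groups enter these values. In bulk tissue, fewer cells of a type and less RNA per cell cannot be told apart. The pancreas markers lay between 465.5 and 16640 RPKM in normal vehicle and between 3.534 and 3448 RPKM in normal 1,25D. With their score as a covariate the Nr1h4 difference on the normal diet was 0.34 (SE 0.40, adjusted p 0.967). It was 0.40 without normal vehicle replicate 6, the library with the most pancreas signal and the least Nr1h4, and 1.00 (adjusted p 0.171) without normal vehicle replicate 4, the one with the most Nr1h4 in its group.

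The deposited tables list Nr1h4 as 3 entries, whose values were summed. A single entry held 74.8% to 90.3% of the sum (median 81.1%). The other 2 kept a nearly constant ratio in every library, between 1.0057 and 1.0074. Entries that move together so closely may count the same reads, so the sum may overstate the level of Nr1h4. By the largest entry alone, the means on the normal diet were 14.49 ± 9.48 RPKM under vehicle and 20.43 ± 8.17 after 1,25D, and on the rescue diet 14 ± 5.28 and 19.41 ± 13.04 RPKM (SD, n = 6 each).

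The genes whose pattern over the 24 libraries was most like that of Nr1h4, out of 15723 genes averaging at least 1 RPKM, were Fosl2 (Pearson's r 0.936), Pptc7 (0.929) and Naip1 (0.915). Within groups the correlations were 0.955, 0.919 and 0.918, so the likeness comes from libraries that differ inside the groups. For Nr0b2, which Nr1h4 is known to induce, r with Nr1h4 was -0.00 (Spearman's rho 0.15). Nr0b2 rests on 6 to 70 reads a library and lay among the receptor genes in level. Whether Nr1h4 induced it here was not tested.

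The 250 bases before the start of Nr1h4 and of Slc10a2 are shown because these genes are the receptor at a clear level and the transporter at the level of the receptor genes. They are from RefSeq for build GRCm38.p6, matched by symbol, while the deposited values were made on mm9. Nr1h4 lies at chr10:89506659-89506908 (minus strand) and Slc10a2 at chr8:5105288-5105537 (minus strand), and both read 5′ to 3′ on the gene's strand with matches to the motifs searched in capitals.
Nr1h4: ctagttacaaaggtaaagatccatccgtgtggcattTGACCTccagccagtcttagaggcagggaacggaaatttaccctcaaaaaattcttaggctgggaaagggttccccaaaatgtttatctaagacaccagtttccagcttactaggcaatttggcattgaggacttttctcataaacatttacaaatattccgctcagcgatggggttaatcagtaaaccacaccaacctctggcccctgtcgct
Slc10a2: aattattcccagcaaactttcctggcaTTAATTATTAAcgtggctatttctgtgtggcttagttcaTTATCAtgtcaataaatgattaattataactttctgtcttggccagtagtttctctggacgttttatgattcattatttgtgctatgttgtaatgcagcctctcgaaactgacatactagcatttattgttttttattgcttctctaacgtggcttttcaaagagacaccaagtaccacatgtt

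The motifs were searched on both strands in the windows of 4 members; Fgf15 had no window, and that of Fabp6 did not end at an annotated transcript start and was left out. Nr1h4 holds the nuclear receptor hexamer AGGTCA on the opposite strand at -214 to -209 from the start, a match found in 14% of 32851 promoter windows of the same length. Slc10a2 holds the HNF1 palindrome TTAATNATTAA at -223 to -213, found in 0.116% of windows, and the GATA motif TGATAA on the opposite strand at -184 to -179, found in 7.94%. Gpbar1 holds the same GATA motif at -112 to -107. The FXR inverted repeat AGGTCANTGACCT and the vitamin D receptor direct repeat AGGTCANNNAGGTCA, each in 0.00609% of windows and both containing the hexamer, and the Nr5a2 site CAAGGTCA (1.33%, which also contains it) had no match in these windows. Nr0b2 had no match to any of the motifs. Only these strings as written were searched, so sites that differ from them by a base were not seen. Matches to the 2 repeats are so rare that their absence here says nothing about the members.

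Nr0b2, the FXR-induced corepressor, was measured by 6 to 70 reads a library. Its level was 0.626 to 1.798 RPKM in normal vehicle (median 1.377), 0.577 to 1.719 in normal 1,25D (median 0.8825), 0.221 to 2.266 in rescue vehicle (median 1.231) and 0.514 to 1.511 in rescue 1,25D (median 1.163). Rescue vehicle held both the lowest library (replicate 3) and the highest (replicate 4), and the other groups lay within its range. The log2 difference after 1,25D was -0.25 on the normal diet (SE 0.27, interval -0.81 to 0.31, adjusted p 0.88) and 0.01 on the rescue diet (SE 0.27, interval -0.55 to 0.57, adjusted p 0.994). For diet it was -0.12 under vehicle (interval -0.68 to 0.44) and 0.15 after 1,25D (interval -0.41 to 0.71), with an interaction of 0.26 (interval -0.53 to 1.06). The genes most like it were Olfr1198 (r 0.704), Tas2r137 (0.678) and Gm3857 (0.672), at means from 1.010 to 1.742 RPKM, and its r with the receptor gene score was 0.46 (n = 24 libraries).

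Gpbar1, the membrane receptor for bile acids, was measured by 2 to 24 reads a library. It lay between 0.051 and 0.85 RPKM in normal vehicle (median 0.497), between 0.240 and 0.897 in normal 1,25D (median 0.5365), between 0.312 and 0.948 in rescue vehicle (median 0.630) and between 0.156 and 0.640 in rescue 1,25D (median 0.351). Normal vehicle replicate 6 was the lowest of all, and the groups overlapped throughout. After 1,25D the log2 difference was 0.13 on the normal diet (SE 0.22, interval -0.33 to 0.58, adjusted p 0.958) and -0.36 on the rescue diet (SE 0.22, interval -0.82 to 0.10, adjusted p 0.878). The diet difference was 0.26 under vehicle (interval -0.20 to 0.72) and -0.23 after 1,25D (interval -0.68 to 0.23), and the interaction was -0.48 (interval -1.13 to 0.16, adjusted p 0.893). Bbs5 (r 0.759), Tbc1d5 (0.746) and Rnf41 (0.724) were the genes most like it, and its r with the receptor gene score was 0.09.

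Slc10a2, the uptake transporter, was measured by 9 to 88 reads a library. Its level was 0.593 to 2.687 RPKM in normal vehicle (median 0.869), 0.382 to 1.568 in normal 1,25D (median 1.339), 0.227 to 2.799 in rescue vehicle (median 0.856) and 0.287 to 3.587 in rescue 1,25D (median 1.377). A single library was far above the rest in normal vehicle (replicate 2) and in rescue vehicle (replicate 1), and rescue 1,25D replicate 4 was the highest of all. The log2 difference after 1,25D was 0.01 on the normal diet (SE 0.37, interval -0.74 to 0.77, adjusted p 0.999) and 0.46 on the rescue diet (SE 0.37, interval -0.30 to 1.22, adjusted p 0.878). Diet differences were -0.20 under vehicle (interval -0.96 to 0.55) and 0.24 after 1,25D (interval -0.51 to 1.00), with an interaction of 0.45 (interval -0.62 to 1.52).

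The level of Slc10a2 followed the receptor genes from library to library. Pearson's r of log2 Slc10a2 with their mean log2 level was 0.87 (Spearman's rho 0.83, n = 24 libraries), 0.86 within groups and 0.81 without the 2 libraries farthest from the median score (n = 22). This was not particular to Slc10a2. Of the other low genes of bile acid transport, synthesis and regulation, Slco1a4, Cyp7a1, Abcb4, Akr1d1, Abcb11 and Baat had r from 0.83 to 0.95. For Klb, Cyp8b1, Slc27a5, Cyp7b1, Abcc4 and Fgfr4 it ran from -0.26 to 0.51. The 3 libraries with the highest Slc10a2, replicate 4 of rescue 1,25D, replicate 1 of rescue vehicle and replicate 2 of normal vehicle, were also those with the highest receptor gene medians, 3.985, 2.552 and 2.493 RPKM. Slc10a2 exceeded the receptor gene median in 10 of 24 libraries. With the receptor score as a covariate, the 1,25D difference on the rescue diet was 0.03 (SE 0.21) in place of 0.46 (SE 0.37). The genes most like Slc10a2 were Olfr954 (r 0.913), Dsg1c (0.904) and Catsperb (0.903), an olfactory receptor, a desmosomal cadherin and a sperm channel subunit, with means from 1.034 to 2.067 RPKM. What makes the receptor score differ between libraries was not tested.

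**Figure D3:**
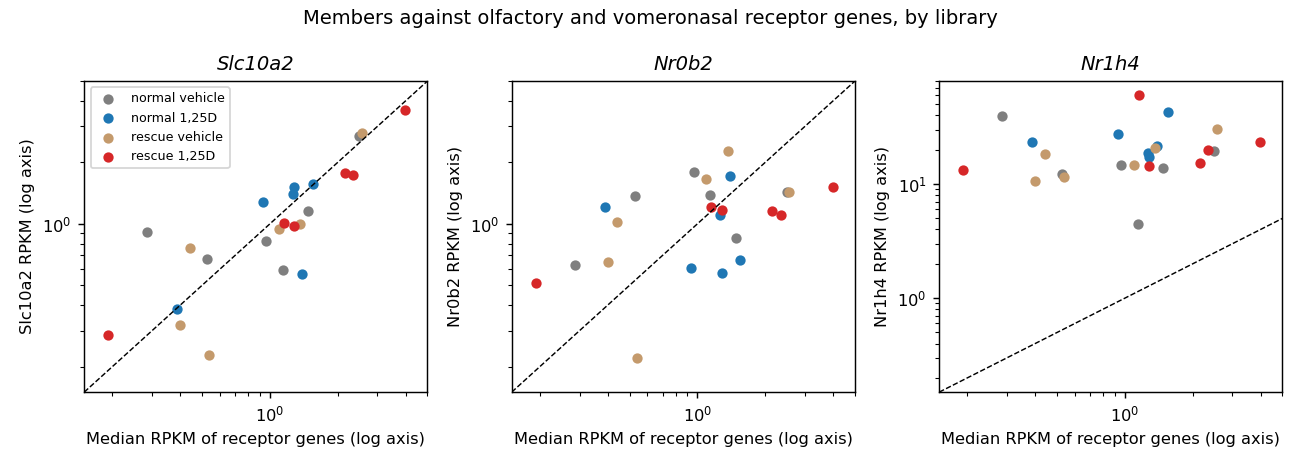
RPKM of Slc10a2, Nr0b2 and Nr1h4 against the median RPKM of 1459 receptor genes in the same library (24 points, coloured by group, both axes logarithmic; the dashed line marks equal levels). Slc10a2 runs along the line (r 0.87 with the receptor score), Nr0b2 follows it less closely (r 0.46) and Nr1h4 lies above it in 24 of 24 libraries.

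Fabp6, the ileal bile acid binding protein, was all but unread. Whole reads could be recovered from its RPKM values, and they came to 20 reads in 24 libraries, with 0 reads in 15 libraries and no more than 3 in any. The libraries on the normal diet held 0, 2, 0, 0, 1 and 0 reads under vehicle and 0, 0, 2, 0, 2 and 0 after 1,25D. Those on the rescue diet held 0, 3, 0, 0, 0 and 0 reads under vehicle and 3, 3, 3, 0, 0 and 1 after 1,25D. Rescue 1,25D held 10 of the 20 reads (exact Poisson 95% interval 4.80 to 18.39, counting error only) and rescue vehicle 3 (0.62 to 8.77). The RPKM values ran from 0 to 0.399, and a count of 0, which allows up to 3 reads, corresponds to an upper limit of 0.198 to 0.549 RPKM in the libraries at 0. An exact two-sided permutation test over every split of the 12 libraries, on log2 values, gave a difference of 0.33 on the rescue diet (p = 0.106) and 0.04 on the normal diet (p = 0.848); the smallest p these splits can give is 0.00216. For diet, exact permutation p was 1.0 under vehicle (difference -0.06) and 0.275 after 1,25D (difference 0.23). In a limma fit without the filter on low values, the rescue diet difference after 1,25D had an interval of -0.03 to 0.69 (adjusted p 0.901). The interaction in that fit was 0.29 (interval -0.22 to 0.79). In the same family of cytosolic lipid carriers, Fabp2 averaged 607.4 RPKM and Fabp1 517.9 RPKM, so the transcripts of the proximal carriers stood 6170 and 5260 times above Fabp6.

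Fgf15, the ileal hormone, was represented by 181 reads and was at 0 in 6 libraries. On the normal diet the libraries held 11, 4, 12, 11, 0 and 17 reads under vehicle and 15, 3, 2, 4, 2 and 0 after 1,25D. On the rescue diet they held 13, 0, 11, 12, 32 and 3 reads under vehicle and 10, 0, 4, 15, 0 and 0 after 1,25D. Summed reads were lower after 1,25D on both diets, but the libraries of the groups overlapped. The sums were 26 (Poisson interval 16.98 to 38.10) against 55 (41.43 to 71.59) on the normal diet. For the rescue diet they were 29 (19.42 to 41.65) against 71 (55.45 to 89.56), with 32 of the 71 in 1 library. These sums are not corrected for library size, and the intervals leave out the spread among libraries. Mean RPKM, which allows for library size, was 0.096 against 0.2117 on the normal diet and 0.1525 against 0.2683 on the rescue diet. The median RPKM under vehicle was 0.236 for the normal diet and 0.245 for the rescue diet, and after 1,25D it was 0.057 on both. The highest library under vehicle held 0.595 RPKM and the highest after 1,25D 0.584 RPKM, both on the rescue diet. In the libraries at 0 the upper limit is 0.057 to 0.091 RPKM.

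Over libraries the Fgf15 difference after 1,25D was -0.25 on the normal diet (exact permutation p = 0.141, two-sided) and -0.24 on the rescue diet (exact permutation p = 0.344). In a limma fit without the filter on low values the adjusted p was 0.844 and 0.901. Without normal vehicle replicate 5, the library of that group at 0 reads, the difference on the normal diet was -0.34 (exact permutation p = 0.0325, not adjusted). Without normal 1,25D replicate 1, which holds 15 of that group's 26 reads, it was -0.33 (exact permutation p = 0.0519). These 2 libraries stand out by their own Fgf15 reads, so leaving either out widens the difference by construction. Over the 12 fits that each left out 1 library of these groups, the difference ran from -0.34 to -0.17. Only 1 of these fits had an exact permutation p under 0.05, and the highest p was 0.266. Averaged over both diets, the comparison added after the data were seen, the Fgf15 difference after 1,25D was -0.24 (interval -0.54 to 0.05, adjusted p 0.706). It was 0.19 for Fabp6 (interval -0.07 to 0.44) and 0.24 for Slc10a2 (interval -0.3 to 0.78). For Gpbar1 it was -0.12 (interval -0.43 to 0.19) and for Nr0b2 -0.12 (interval -0.52 to 0.28). For Fgf15 between the diets, the values were as follows. The diet difference was 0.08 under vehicle (exact permutation p = 0.71) and 0.08 after 1,25D (exact permutation p = 0.734), and the interaction in the unfiltered fit was 0.01 (interval -0.59 to 0.60).

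**Figure D4:**
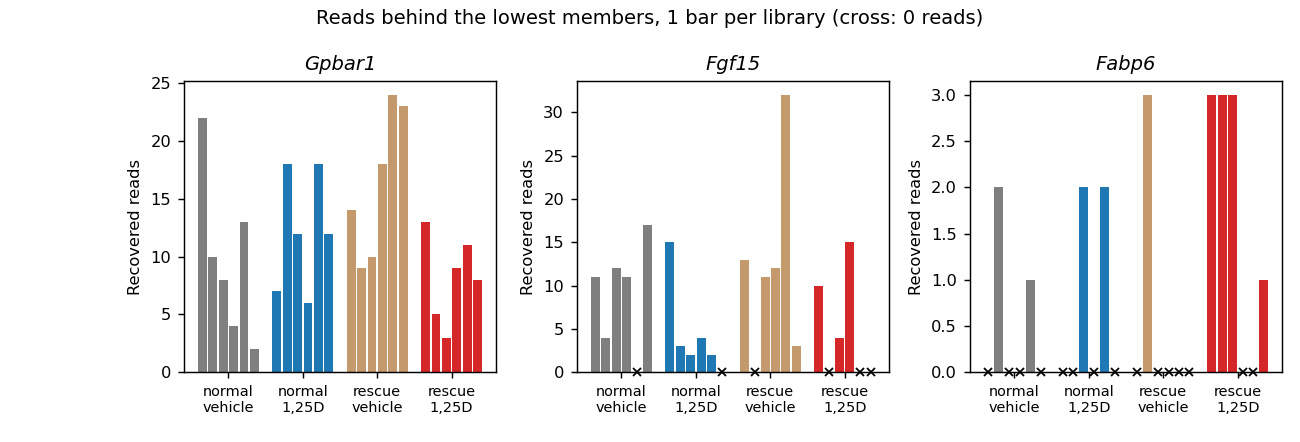
Reads recovered from the RPKM values of Gpbar1, Fgf15 and Fabp6, 1 bar per library in replicate order within each group, with a cross for 0 reads. Gpbar1 has 2 to 24 reads a library, Fgf15 0 to 32 and Fabp6 0 to 3. For Fgf15 the bars after 1,25D hold 0 to 4 reads apart from normal 1,25D replicate 1 and rescue 1,25D replicates 1 and 4. Normal vehicle replicates 2 and 5 and rescue vehicle replicates 2 and 6 are as low.

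The members' 95% intervals set the scale of what could be seen. On log2(RPKM + 0.5), which shrinks differences of genes near or below 0.5 RPKM, the widest intervals were those of Nr1h4 and Slc10a2, whose libraries varied most among the 4 tested members (coefficients of variation 57.1% and 69.6%). No 2 members followed each other closely: over the 15 pairs, Pearson's r ran from -0.45 (Fgf15 and Fabp6) to 0.39 (Slc10a2 and Nr1h4).

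**Figure D5:**
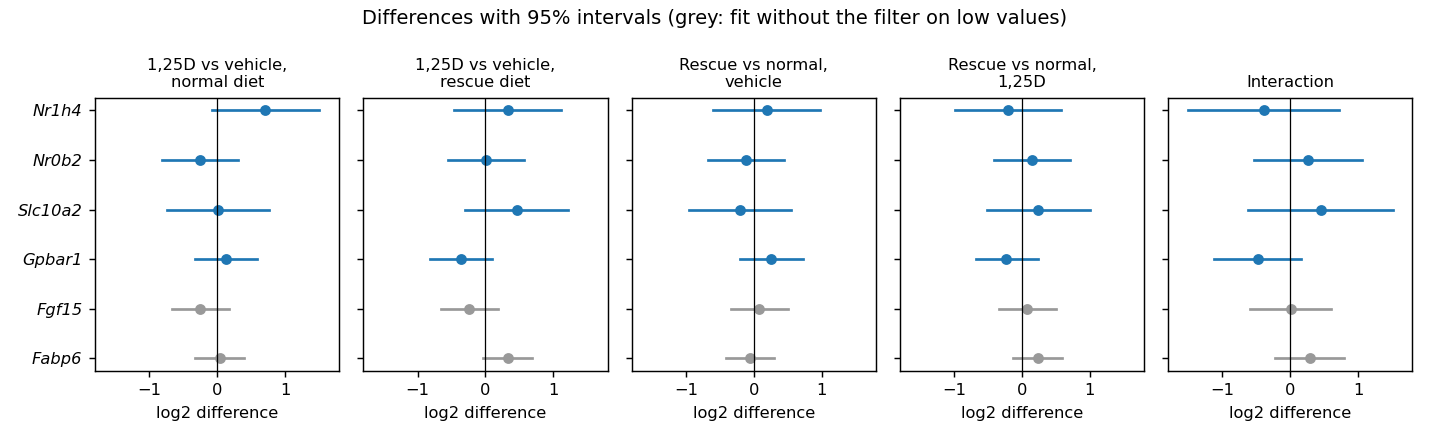
Log2 difference (points) with 95% interval (lines) of each member in the 5 comparisons, from the fit of 20006 genes (blue) and, for Fgf15 and Fabp6, from the fit without the filter on low values (grey). All the intervals drawn include 0. The largest difference is that of Nr1h4 for 1,25D on the normal diet (0.71, interval -0.07 to 1.5). The interval that reaches least past 0 is that of Fabp6 for 1,25D on the rescue diet (0.33, interval -0.03 to 0.69).

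The rest of the pathway was read from 42 listed genes, of which 41 were found (Malrd1 was not) and 39 passed the filter. The lists were chosen with earlier results of these data known, so counts in them cannot be read as an excess in the pathway. For 1,25D on the normal diet 3 of 39 rose and 0 fell, against 1.78% of all genes tested that rose. The median log2 difference was 0.11 in the lists and 0.05 over all genes. In the other 4 comparisons limma called 0 of 39. At an unadjusted p under 0.05 there were 10 of 39 for 1,25D on the normal diet (12% of all genes tested), 4 on the rescue diet (4.83%), 4 for diet under vehicle (7.18%), 7 for diet after 1,25D (8.38%) and 7 for the interaction (6.85%). Without rescue vehicle replicate 6, or without rescue 1,25D replicate 6, the interaction called 1 gene of the lists. Their medians were -0.14 for 1,25D on the rescue diet (0.06 over all genes), 0.18 and -0.06 for diet under vehicle and after 1,25D (0.10 and 0.12), and -0.23 for the interaction (0.01).

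Among 9 exporters of bile acids and sterols, 1 rose. Abcc2, the apical pump for conjugated organic anions, lay between 16.82 and 51.89 RPKM in normal vehicle and between 62.64 and 92.29 in normal 1,25D. These groups did not overlap, as was so for 2.22% of all genes tested. Abcc2 rose 2.43-fold (log2 1.28, SE 0.32, adjusted p 0.0374). On the rescue diet its log2 difference was 0.12 (adjusted p 0.948). The call did not hold in 7 of 24 fits that left out a library, nor with quantile normalization (1.13, adjusted p 0.107) or median-of-ratios scaling (1.20, adjusted p 0.132). Abcg5, which forms the sterol exporter with Abcg8, had a log2 difference of 0.26 (adjusted p 0.82). Osta and Ostb, the basolateral bile acid exporter that takes over after Slc10a2 and Fabp6 and is itself induced by FXR, averaged 15.23 and 15.13 RPKM, far above both, with differences of 0.72 (adjusted p 0.303) and 0.34 (adjusted p 0.949).

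Of the 15 nuclear receptors and transcription factors that act with the members, 1 rose. Nr1h3 (LXR alpha, a sterol sensor) lay between 5.167 and 9.632 RPKM in normal vehicle and between 10.47 and 14.98 in normal 1,25D, and rose 1.57-fold (log2 0.65, SE 0.13, adjusted p 0.00514). It is listed as 2 entries among which the values move from library to library, and by its highest entry alone the difference was -1.11 (adjusted p 0.674), so the call stands for the sum. Hnf4a, the master regulator of the enterocyte, averaged 115.8 RPKM and Vdr, the receptor for 1,25D, 66.63 RPKM, with differences of -0.02 and 0.14 that did not pass the test. Gata4, known to hold ileal genes such as Slc10a2 down in the proximal intestine, averaged 26.78 RPKM.

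Among 5 other carriers and lipid binding proteins, Fabp2, the intestinal fatty acid binding protein, lay between 91.93 and 523.9 RPKM in normal vehicle and between 704.0 and 1067 RPKM in normal 1,25D, and rose 3.25-fold (log2 1.70, SE 0.37, adjusted p 0.0142). With median-of-ratios scaling the difference was 1.62 and the call was lost (adjusted p 0.059). Fabp1, which binds fatty acids and bile acids, had a log2 difference of 1.10 (adjusted p 0.0631). Its groups did not overlap either, against 2.22% of all genes tested. The same was so in the lists for Cyp7b1 (log2 0.6, adjusted p 0.119) and Nr1i3 (log2 0.55, adjusted p 0.152), which were not called. On the rescue diet the differences were -0.48 for Fabp2 and -0.76 for Fabp1 (adjusted p 0.878 for each), and the interactions, -2.17 and -1.86, did not pass (adjusted p 0.187 and 0.179). Of 10 genes of bile acid synthesis 8 were tested and 0 called, with Cyp27a1 at 11.91 and Amacr at 8.789 RPKM the highest. Cyp7a1, the rate-limiting liver enzyme that Fgf15 represses, averaged 0.7382 RPKM, below the receptor gene median in every library. The partners that receive Fgf15 on the hepatocyte, Klb and Fgfr4, averaged 0.7822 and 0.4436 RPKM and were not called.

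Beside the 3 rises on the normal diet, the summed markers of the proximal intestine were 250.9 to 574.5 RPKM in normal vehicle and 658.7 to 851.9 in normal 1,25D, with Lct and Pdx1 called higher among 10. Fabp2 is itself an epithelial marker. The other 6 epithelial markers summed to 1113 to 1698 RPKM in normal vehicle and 1473 to 2130 in normal 1,25D, so the groups overlapped, and none of the 6 was called. With the pancreas score as a covariate the differences were 1.31 for Abcc2 (adjusted p 0.123), 1.59 for Fabp2 (adjusted p 0.0976) and 0.57 for Nr1h3 (adjusted p 0.0645), of much the same size but past the threshold no longer. The part of the proximal and epithelial markers in these rises was not tested.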

How the data were processed

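The data are 24 tables of RPKM values, 1 per library of duodenal RNA, deposited by the authors; the file headers name the unit RPKM. Per the submitters' processing notes, TopHat and the mouse build mm9 were used; the annotation and the counting program are not given in the sources read here. Per the labels' protocols, ribosomal RNA was removed and directional libraries were made. Of 30795 entries per table, those sharing a symbol were summed to 25410 symbols (3470 had several entries, Nr1h4 among the members 3). No 2 libraries were identical.

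limma 3.58.1 (R 4.3.3) was fitted to log2(RPKM + 0.5) with an intensity trend, 1 mean per group over all 24 libraries (20 residual degrees of freedom), for 20006 genes with at least 0.5 RPKM in 6 libraries or more. Within each diet 1,25D was set against vehicle, within each injection rescue against normal diet, and the interaction made 5 comparisons; calls needed a p, adjusted after Benjamini-Hochberg over all genes tested, under 0.05. Fgf15 and Fabp6, below the filter, were compared with exact two-sided permutation tests. Fits were tested on simulated data.

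Reads were recovered from the steps between low RPKM values: 474 of 2494 rarely detected entries gave whole multiples (tolerance 0.1), and 171 genes with 1 transcript set the absolute scale, 74.9% of them within 5% of the median. For Fgf15, Fabp6, Slc10a2, Nr0b2 and Gpbar1, 100% of the values above 0 were whole; Nr1h4 gave no step. Intervals and the limit of 3 reads behind a 0 cover counting error only. No count model was run, since most genes gave no step.

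All 6 members are named in every comparison. Of the pathway lists, every called gene and the 2 most expressed per list are named. Osta, Ostb, Fabp1, Gata4 and Cyp7a1 were added for their role, and Cyp7b1 and Nr1i3 because their groups did not overlap. The low genes set beside Slc10a2 were added for their level. Members and lists were chosen with earlier results of these data known. Alternatives covered pseudocount, filter, scaling, library weights, replicate block, groups in the fit, threshold, summing of entries, and leaving out each library; pancreas and receptor covariates were added later. Python 3.11.15, numpy 2.4.6, pandas 2.3.3, scipy 1.17.1 and matplotlib 3.10.9 were used.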

Additional observations from a re-analysis of the deposited data

Results flagged for a closer look

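Of 24 pairs of a member and a group, 5 had a library set apart from its nearest neighbour. Its distance took up more of the group's range than Dixon's 95% critical value for 6 samples. That value is passed in about 1 in 20 groups of normally distributed values, which raw RPKM near 0 need not be. The 5 pairs can therefore not be read as an excess over that rate. Where 5 libraries are at 0, any read in the remaining library passes the mark. Slc10a2 was apart at 2.687 RPKM in normal vehicle replicate 2, where the next library held 1.151, and at 2.799 RPKM in rescue vehicle replicate 1, where the next held 1.000. In both libraries the receptor gene median was the highest of its group, at 2.493 and 2.552 RPKM. Nr1h4 reached 60.457 RPKM in rescue 1,25D replicate 6, against 23.22 for the next library. Fgf15 stood at 0.584 RPKM (15 reads) in rescue 1,25D replicate 4, against 0.217, and Fabp6 at 0.266 RPKM (3 reads) in rescue vehicle replicate 2, where the other 5 libraries were at 0.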

How the results depend on the processing

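No alternative brought a tested member under an adjusted p of 0.05; the lowest was 0.171 (Nr1h4, normal diet, without normal vehicle replicate 4). Signs turned where differences were small. Slc10a2 on the normal diet (0.01) became -0.03 with median-of-ratios scaling, with array weights and with the receptor covariate, -0.34 with the pancreas covariate and -0.08 without normal vehicle 6 and rescue 1,25D 6 (leaving out single libraries: -0.08 to 0.23); its diet difference after 1,25D (0.24) became -0.06 with the receptor covariate, and that under vehicle ran from -0.47 to 0.01 over single libraries left out. Nr0b2 on the rescue diet (0.01) became -0.01 with a pseudocount of 1, with median-of-ratios scaling and without those 2 libraries, -0.18 with quantile normalization and -0.16 with the receptor covariate (single libraries: -0.21 to 0.18); its diet differences became -0.02 after 1,25D with quantile normalization, and under vehicle ran from -0.28 to 0.11. Nr1h4 for diet under vehicle (0.19) became -0.06 with array weights, -0.15 with the pancreas covariate and -0.13 without those 2 libraries (single libraries: -0.13 to 0.47), and Gpbar1 on the normal diet became -0.02 without them (single libraries: -0.02 to 0.24). Nr1h3 on the normal diet was -1.11 by its highest entry. In the permutation comparisons, leaving out single libraries gave -0.34 to -0.17 for Fgf15 for 1,25D on the normal diet (the former, without normal vehicle 5, with an exact p of 0.0325), -0.04 to 0.19 for Fgf15 and -0.16 to 0.03 for Fabp6 for diet under vehicle, -0.07 to 0.17 for Fgf15 for diet after 1,25D and -0.04 to 0.13 for Fabp6 for 1,25D on the normal diet. The cause of these changes was not tested.

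Calls over all genes moved more. On the normal diet 368 became 620 at a threshold of 0.10, 131 with the pancreas covariate and 200 to 453 without single libraries (normal vehicle 1 and normal 1,25D 3, 4 and 6 moved it by over 1.5 times). The split into 357 higher and 11 lower became 231 and 93 with quantile normalization and 208 and 68 with median-of-ratios scaling, which moved the median gene's diet difference from 0.12 to 0.01 (quantile, after 1,25D) and from 0.10 to 0.00 (ratios, under vehicle). On the rescue diet 29 became 52 with quantile normalization, 90 with array weights, 11 with only the groups compared and 12 to 48 without single libraries. Diet called 0 under vehicle, and 0 to 4 without single libraries (4 without normal vehicle 4). After 1,25D it called 2, and 1 with no filter, median-of-ratios scaling, the highest entry per symbol or the replicate block, 4 with quantile normalization, 1287 with array weights, 0 with only the groups compared, 12 without those 2 libraries and 0 to 14 without single libraries. The interaction called 1, and 2 with quantile normalization, 0 with median-of-ratios scaling or the pancreas covariate, 32 with array weights, 5 at 0.10, 6 without those 2 libraries and 0 to 17 without single libraries; it has no fit with only the groups compared. Replicate numbers did not pair the libraries (correlations of same-numbered libraries from -0.436 to 0.478; 3 of 24 correlated best with their own number), and the replicate block changed no member's call. Fabp6 rests on 20 reads and Fgf15 on 181, and both lie below most receptor genes.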

Other observations

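Slc10a1, the bile acid uptake transporter known from the liver and the relative of Slc10a2, was picked out after its values were seen. It averaged 14.37 ± 2.88 RPKM over 24 libraries (8.618 to 20.36), above 99.9% of the receptor genes, while Slc10a2 averaged 1.208 RPKM. Albumin (Alb), among the most abundant liver transcripts, averaged 0.7382 RPKM, and 7 liver markers together summed to no more than 11.48 RPKM in any library. The source of the Slc10a1 signal was not tested. Slc10a1 was not called by limma in any of the 5 comparisons, with log2 differences after 1,25D of 0.14 on the normal diet (adjusted p 0.906) and -0.23 on the rescue diet (adjusted p 0.878).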
